A study of Mus musculus with 96 samples.

Results

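The 8 genes described here are Slc17a7, Tbr1, Fezf2, Cux2, Rorb, Neurod2, Neurod6 and Emx1, markers of the excitatory projection neurons of the cerebral cortex. They were chosen by name from a deposited read-count table of 48795 genes, in which each of the 8 names occurred once. The table covers cerebral cortex and striatum of 48 C57BL/6 mice aged 6 months, 96 libraries of total RNA in all, with both tissues from every animal. The 6 genotypes had 8 animals each, 4 females and 4 males. They were wild type (WT), Q140, Pms1+/-, Q140 Pms1+/-, Pms1-/- and Q140 Pms1-/-. Q140 is a heterozygous knock-in of Htt with an expanded CAG repeat, the repeat that causes Huntington's disease. Pms1 encodes a protein of DNA mismatch repair, and the labels do not describe how its allele was made. WT animals served as controls of the single mutants, and Q140, Pms1+/- or Pms1-/- animals as controls of the double mutants. The comparisons therefore share control animals. Whole dissected tissue was used, so that fewer cells of a type and less RNA per cell cannot be told apart. P-values treat the animals as independent, and no source used here describes litters or cages. Tissue comparisons also treat both tissues of an animal as independent libraries, except where the animal is named as a block.

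Excitatory projection neurons are the glutamatergic cells of the cortex, and their axons reach the striatum, thalamus, brainstem and other cortical areas. They arise from progenitors of the dorsal forebrain under homeobox, T-box and basic helix-loop-helix transcription factors, several of which stay on in the adult and differ between layers. The striatum holds few glutamatergic cell bodies: its main cells are GABAergic medium spiny neurons, which receive the cortical axons and are the neurons most affected in Huntington's disease. The transcripts of these markers are made mainly in cell bodies, so the genes separate cortical from striatal tissue.

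The promoters of Slc17a7, Neurod2 and Neurod6 are shown because these genes were among the most tissue-specific of the 8 and rose together in certain striatal libraries. Neurod2 and Neurod6 are basic helix-loop-helix factors, a family that binds the E-box CANNTG. The lines give the 250 bases before the start of each gene in RefSeq (GRCm38.p6), 5′ to 3′ on the gene's strand, with E-boxes in capitals. They cover chr7:45163671-45163920 on the plus strand for Slc17a7, chr11:98329646-98329895 on the minus strand for Neurod2 and chr6:55681264-55681513 on the minus strand for Neurod6.
Slc17a7: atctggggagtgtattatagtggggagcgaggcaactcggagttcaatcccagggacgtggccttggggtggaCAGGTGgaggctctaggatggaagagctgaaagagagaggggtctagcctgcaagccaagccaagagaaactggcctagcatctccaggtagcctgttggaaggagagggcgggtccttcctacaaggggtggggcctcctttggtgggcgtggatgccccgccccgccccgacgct
Neurod2: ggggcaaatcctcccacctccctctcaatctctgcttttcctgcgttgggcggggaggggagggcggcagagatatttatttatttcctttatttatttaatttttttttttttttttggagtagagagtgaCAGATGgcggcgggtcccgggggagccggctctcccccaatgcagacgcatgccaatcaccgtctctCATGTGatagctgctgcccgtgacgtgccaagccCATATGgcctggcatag
Neurod6: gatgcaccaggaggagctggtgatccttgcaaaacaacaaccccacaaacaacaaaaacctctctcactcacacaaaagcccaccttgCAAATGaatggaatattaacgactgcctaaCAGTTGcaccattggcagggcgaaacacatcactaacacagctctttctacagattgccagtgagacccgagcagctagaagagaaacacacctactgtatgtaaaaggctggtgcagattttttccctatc

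Slc17a7 had 1 E-box in this window, 177 bases before the start. Neurod2 had 3, at 118, 51 and 17 bases before the start, the farthest of which reads CAGATG. Neurod6 had 2, at 162 and 132 bases. Of the 10 RefSeq promoter entries of the 8 genes, 8 held an E-box, against 66.2% of all 32851 promoters of the same length searched on both strands. CAGATG, which is itself an E-box, was in 2 of the 10 against 14.4% of all promoters, and CAGCTG in 0 of the 10 against 13.0%. The T-box letters AGGTGT, searched with their reverse complement ACACCT, were in 1 of the 10, that of Neurod6, against 11.8%. These matches describe letters only.

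In cortex all 8 genes were well measured. Library totals lay between 27993751 and 56364535 counts with a median of 39928025, and values are counts scaled to library size with TMM factors (CPM) unless FPKM is named. The lowest cortical count of any of the 8 in any of the 48 animals was 687, for Fezf2. Per length, as mean FPKM over the 48 cortices, Slc17a7 stood first with 234.6 ± 11.8 (SD, n = 48). Neurod2 with 35.7 ± 1.36, Neurod6 with 31.6 ± 3.87, Tbr1 with 29.9 ± 1.45 and Cux2 with 22.5 ± 1.6 followed. Emx1 with 12.3 ± 1.02, Fezf2 with 11.8 ± 1.48 and Rorb with 7.92 ± 0.75 were lowest. Neurod2 and Neurod6, Neurod6 and Tbr1, and Emx1 and Fezf2 are neighbours in this order whose ranges of 1 SD overlap.

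Slc17a7 (ENSMUSG00000070570, chr7:45163949-45176142 on GRCm38, plus strand) encodes VGLUT1, the vesicular transporter that fills synaptic vesicles with glutamate in most cortical excitatory neurons. Its cortical level ran from 1110.3 through a median of 1286.0 to 1433.1 CPM in the 48 animals. In WT striatum it ran from 2.66 through 4.02 to 5.44 CPM. No cortical library came near a striatal one.

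Tbr1 (ENSMUSG00000035033, chr2:61802930-61814114, plus strand) is a T-box factor of deep-layer neurons that project to the thalamus, and Fezf2 (ENSMUSG00000021743, chr14:12342094-12348189, minus strand) a zinc-finger factor that specifies deep-layer neurons projecting below the forebrain. Cortical Tbr1 ran from 145.4 through 166.1 to 188.0 CPM and WT striatal Tbr1 from 0.377 through 0.6 to 0.844. Cortical Fezf2 ran from 17.2 through 27.7 to 34.2 CPM and WT striatal Fezf2 from 1.95 through 2.36 to 2.96. Both deep-layer factors were higher in every cortex than in any striatum, with a far wider gap for Tbr1.

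Cux2 (ENSMUSG00000042589, chr5:121856366-122050102, minus strand) is a homeobox factor of upper-layer neurons, and Rorb (ENSMUSG00000036192, chr19:18930605-19111196, minus strand) a nuclear receptor of the layer that receives thalamic input. Cortical Cux2 ran from 193.1 through 228.4 to 270.6 CPM and WT striatal Cux2 from 10.8 through 13.1 to 15.8. Cortical Rorb ran from 72.4 through 87.1 to 107.2 CPM and WT striatal Rorb from 13.8 through 15.3 to 17.4. These upper-layer factors kept a clear striatal level. GENCODE places the antisense genes Gm3970 and Gm15637 within Cux2, and no source used here gives the strand setting of the counting, so Cux2 values may include antisense reads.

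Neurod2 (ENSMUSG00000038255, chr11:98325415-98329648, minus strand) and Neurod6 (ENSMUSG00000037984, chr6:55677822-55681263, minus strand) are switched on as excitatory neurons differentiate, and Emx1 (ENSMUSG00000033726, chr6:85187438-85204462, plus strand) is a homeobox gene of the dorsal forebrain lineage. Cortical Neurod2 ran from 102.3 through 114.6 to 123.5 CPM, and Neurod6 from 52.5 through 70.0 to 87.5. Emx1 ran from 21.7 through 27.2 to 32.0 CPM in cortex. In WT striatum Neurod2 lay between 0.176 and 0.569 CPM, Neurod6 between 0.0429 and 0.353, and Emx1 between 0.0251 and 0.215. Emx1 had from 1 to 12 counts in a striatal library, so its striatal level carries wide counting error.

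**Figure D1:**
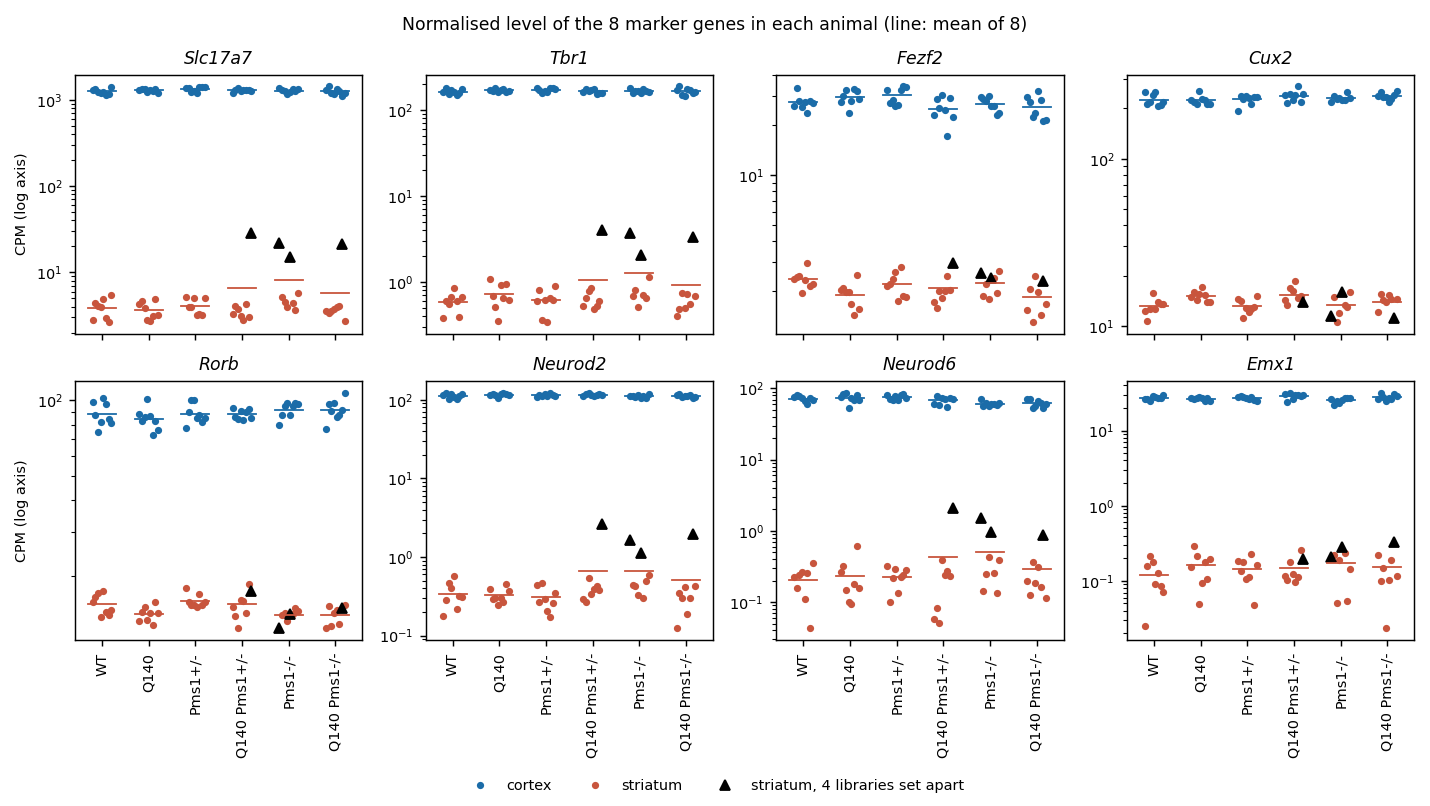
Normalised level in CPM (log axis) of each of the 8 genes in every animal, by genotype, with cortex in blue, striatum in red, the mean of 8 animals as a line, and 4 striatal libraries with Slc17a7 above 10 CPM as black triangles. Cortical points form a narrow band for every gene, while striatal Slc17a7, Tbr1, Neurod2 and Neurod6 are highest in the 4 marked libraries.

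The spread between animals of 1 genotype and sex also differed. In cortex the within-group coefficient of variation was lowest for Neurod2, 4.46%, followed by Slc17a7 with 5.78%, Tbr1 with 6.14%, Emx1 with 6.28% and Cux2 with 6.35%. It was 8.61% for Rorb, 10.8% for Neurod6 and 12.4% for Fezf2. In striatum it was 8.46% for Rorb, 10.3% for Cux2 and 17.2% for Fezf2, and between 50.5% and 112.6% for the other 5. The striatal values include the 4 libraries with Slc17a7 above 10 CPM, in which Slc17a7, Tbr1, Neurod2 and Neurod6 were highest.

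All 8 genes were higher in WT cortex than in WT striatum by edgeR's quasi-likelihood test with Benjamini-Hochberg adjustment, in a fit of both tissues. Of 19723 genes tested, 76% were called in this comparison, so the count of 8 by itself separates little; the sizes do. The log2 fold change was 8.45 (SE 0.22) for Neurod6, 8.31 (SE 0.31) for Slc17a7, 8.30 (SE 0.16) for Neurod2, 8.09 (SE 0.19) for Tbr1 and 7.80 (SE 0.12) for Emx1. It was 4.09 (SE 0.06) for Cux2, 3.53 (SE 0.11) for Fezf2 and 2.50 (SE 0.07) for Rorb. The median of the 8 was 7.95, against -0.02 over all genes tested. All 8 were also called with the animal as a block. DESeq2 called 7 and gave Slc17a7 no adjusted p, with a log2 fold change of 8.31.

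Within an animal, the striatal level as a percent of the cortical one divides the genes the same way. In the 8 WT animals Slc17a7 ran from 0.219% through 0.327% to 0.398%, and Tbr1 from 0.236% through 0.372% to 0.522%. Neurod2 ran from 0.153% through 0.274% to 0.519%, Neurod6 from 0.0577% through 0.299% to 0.507% and Emx1 from 0.0963% through 0.396% to 0.859%. The ranges of these 5 overlap. Cux2 ran from 4.93% through 6.03% to 6.74%, Fezf2 from 7.22% through 8.31% to 12.5% and Rorb from 15.0% through 17.0% to 23.0%. The ranges of these 3 do not overlap each other or those of the 5.

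**Figure D2:**
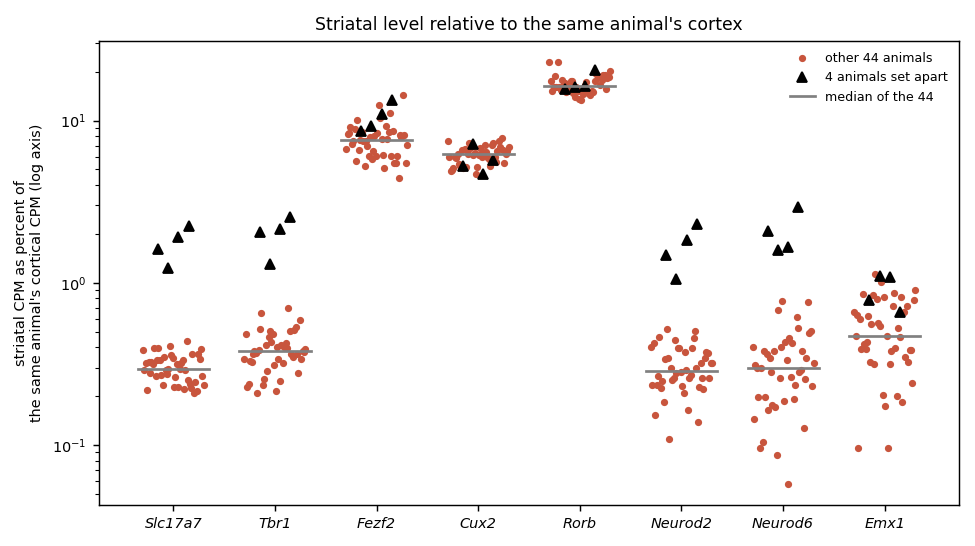
Striatal CPM as a percent of the same animal's cortical CPM (log axis) for the 8 genes, with 44 animals as red points, their median as a grey line, and the other 4 animals as black triangles. Slc17a7, Tbr1, Neurod2, Neurod6 and Emx1 lie near or below 1% in most animals and Cux2, Fezf2 and Rorb well above them.

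Other cortical genes did not share the pattern as a class, in a comparison that called 76% of all genes. In WT, 10 of 14 upper-layer genes were higher in cortex and 4 lower (median 1.60), with Rasgrf2 at 3.25. Of 16 deep-layer genes 7 were higher and 8 lower (median -0.59): Nr4a2 was at 4.54 and Cplx3 at 4.32, while Syt6 was at -4.65, Foxp2 at -4.47 and Bcl11b, a factor that medium spiny neurons also use, at -3.43. Of 14 other forebrain excitatory genes 10 were higher and 4 lower (median 2.13), with Slc30a3, the zinc transporter of glutamatergic vesicles, at 8.94. Of 8 cortical patterning factors 7 were higher and 1 lower (median 1.52). Among 8 tested paralogs of the 10 listed, 6 were higher and 2 lower (median 0.92). Neurod1 stood at 8.66 and Slc17a6, the thalamic counterpart of Slc17a7, at 5.03, while Slc17a8 was at -2.74. All 14 medium spiny neuron markers were lower in cortex (median -5.89).

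In striatum 4 libraries stood apart. Some of the results that rest on them are also given without them, and the others include them. They came from animal 9-4 (Q140 Pms1+/-, female), animals 16-4 and 26-5 (Pms1-/-, males) and animal 43-5 (Q140 Pms1-/-, female), and were set apart after the values were seen, as those with Slc17a7 above 10 CPM. Slc17a7 was at 28.6, 22.1, 15.1 and 21.4 CPM in them, in that order, against 2.66 to 5.83 in the other 44 libraries. Tbr1 was at 3.98, 3.68, 2.06 and 3.31 CPM against at most 1.14. Slc17a7 was above the other 44 by the rule that set the 4 apart, and Tbr1 lay above all 44 in each of the 4.

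Neurod2 was at 2.64, 1.66, 1.12 and 1.97 CPM in the same libraries, against at most 0.593 in the others. Neurod6 was at 2.12, 1.5, 0.968 and 0.869 CPM against at most 0.609. These basic helix-loop-helix genes therefore stood apart with Slc17a7 and Tbr1. The other 4 genes did not: Fezf2 was at 2.98, 2.57, 2.4 and 2.31 CPM, against 1.31 to 2.96 in the others. Cux2 was at 13.9, 11.5, 16.1 and 11.2 CPM and Rorb at 17.5, 12.4, 14.1 and 14.9, and Emx1 was at 0.195, 0.208, 0.281 and 0.334, against at most 0.295. Among these, the highest Fezf2 and the highest Emx1 value exceeded the other 44.

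The striatal excess over the median of the 44 was also set against the same animal's cortex. In animal 9-4 it was 1.94% of the cortical level for Slc17a7, 2.13% for Tbr1, 2.03% for Neurod2 and 2.63% for Neurod6. In animal 16-4 the same genes gave 1.32%, 1.71%, 1.19% and 1.77%, and in animal 26-5 they gave 0.921%, 0.907%, 0.754% and 1.23%. In animal 43-5 they gave 1.57%, 1.72%, 1.54% and 1.22%. Fezf2, which starts from a higher striatal level, gave 4.25%, 1.81%, 1.43% and 1.31% in animals 9-4, 16-4, 26-5 and 43-5, in the range of the 4 genes or above it. In the same order Emx1 gave 0.214%, 0.284%, 0.584% and 0.654%. Cux2 gave -0.1%, -1.23%, 0.849% and -1.24%, and Rorb gave 3.29%, -2.92%, -0.74% and 0.235%, so that these upper-layer genes had both signs.

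Of 19946 genes with a striatal mean of at least 0.1 CPM, 11 were above all 44 other libraries in all 4, Slc17a7 among them by the rule, and 0 were below. Besides the 4 genes above these were 3110035E14Rik, 9130024F11Rik, Bmp3, Gm11549, Nptx1, Prss12 and Tmem178. The summed level of the 8 genes was 52.1 to 72.0 CPM in the 4 libraries and 30.7 to 41.4 in the others. That sum includes Slc17a7, by which the 4 were set apart, so its separation is partly fixed by the rule. The summed medium spiny neuron markers, 8817.9 to 13359.3 CPM in the 4, lay within the 8029.5 to 14367.9 of the others, and no marker of that list was above or below the 44 in all 4. Hippocampal markers summed to 357.9 to 411.1 CPM against 329.8 to 485.9 and thalamic markers to 85.4 to 94.0 against 80.1 to 98.3. The 4 libraries had 34410517, 38424285, 31490342 and 29352852 counts, within the range of the series. Tissue from a neighbouring region as a part of these values was not tested.

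The genotype comparisons were first checked at the targeted gene. Striatal Pms1 was 5.38 ± 0.349 CPM in WT and 3.97 ± 0.443 in Pms1-/- (SD, n = 8 each; log2 fold change -0.43, SE 0.08, edgeR adjusted p = 0.000698), and cortical Pms1 was 3.83 ± 0.406 and 3.56 ± 0.391. The cortical ranges overlapped, with 3.31 to 4.4 CPM in WT and 2.97 to 4.06 in Pms1-/-. Cortical Pms1 therefore did not separate these genotypes. The transcript thus remained in Pms1-/- libraries, and which exons the allele removes is not given. All 16 animals without Pms1 have a first code number of 16 or higher, against 2 WT, 3 Q140, 0 Pms1+/- and 1 Q140 Pms1+/- animals. No source used here says what that number means, so Pms1-/- and whatever the number marks are largely confounded.

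In cortex Neurod6 was the 1 gene of the 8 that passed edgeR's test in a genotype comparison. Its CPM ran from 59.9 through 73.5 to 80.2 in WT, from 56.0 through 60.0 to 72.3 in Pms1-/- and from 69.3 through 75.7 to 83.1 in Pms1+/-. On the knock-in it ran from 53.1 through 75.1 to 87.5 in Q140, from 55.2 through 71.2 to 78.3 in Q140 Pms1+/- and from 52.5 through 61.1 to 71.3 in Q140 Pms1-/-. Both groups without Pms1 had the lowest medians, and their ranges overlapped those of the other groups.

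Neurod6 was lower in Pms1-/- than in WT, with means of 61.1 ± 5.19 and 72.3 ± 6.68 CPM (SD, n = 8) and a log2 fold change of -0.24 (SE 0.08, edgeR adjusted p = 0.0441). It was the 1 of 8 called, where 9.58% of 18711 genes were called. Over both Htt genotypes it was 61.5 ± 6.25 CPM without Pms1 and 73.3 ± 8.71 with both copies (SD, n = 16), a log2 fold change of -0.24 (SE 0.05, edgeR adjusted p = 0.00187). Again it was the 1 of 8 called, against 15.9% of all genes. A share of 1 in 8 is near these backgrounds. On the knock-in alone, Q140 Pms1-/- against Q140, the log2 fold change was -0.25 (SE 0.08) with an edgeR adjusted p of 0.137, so 0 of 8 were called (3 at an unadjusted p below 0.05) against 0.0107% of all genes. DESeq2 called Neurod6 there, at -0.26 with an adjusted p of 0.0433.

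The Neurod6 difference could not be separated from the animal codes. With late code (a first number of 16 or higher) as a term the log2 fold change was -0.18 for Pms1-/- against WT (edgeR adjusted p = 0.354) and -0.19 over both Htt genotypes (adjusted p = 0.178). Among late codes alone the pooled value was -0.21 (adjusted p = 0.27). The 2 late-coded WT animals had 59.9 and 74.3 CPM, and the 3 late-coded Q140 animals had 53.1, 84.3 and 87.5. The former are females and the latter males, so sex and genotype coincide in that small class. In females the pooled value was -0.27 (adjusted p = 0.00686) and in males -0.23 (adjusted p = 0.155).

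**Figure D3:**
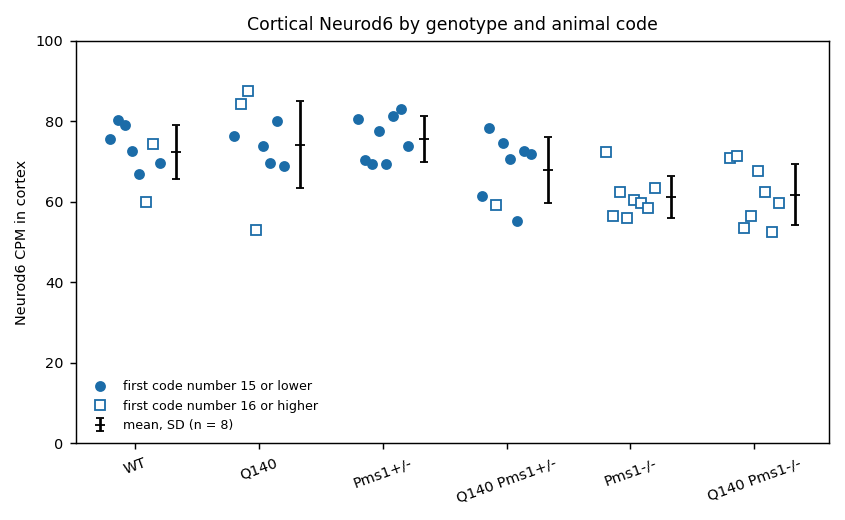
Cortical Neurod6 in CPM for each animal by genotype, with filled circles for first code numbers of 15 or lower, open squares for 16 or higher, and the mean with its SD (n = 8) in black. All 16 animals without Pms1 are open squares and lie between 52.5 and 72.3 CPM, while the open squares of WT and Q140 spread from 53.1 to 87.5.

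Genes of the other cortical lists moved in both directions. In the pooled comparison of Pms1-/- the upper-layer list had 1 gene higher and 2 lower of 14 (median -0.07), with Otof at 0.39 and Lamp5 at -0.12, and the deep-layer list of 16 had a median of -0.05. Among other forebrain excitatory genes 1 was higher and 2 lower of 14, with Slc30a3 at 0.08, Cck at -0.12 and Mef2c at -0.08. In the same comparison, where 15.9% of all genes were called, 5 of 8 oligodendrocyte markers were lower. Their summed level was 1511.7 to 2118.1 CPM without Pms1 and 1721.8 to 2293.1 with both copies. Of 7 endothelial and mural markers 4 were lower, with sums of 277.7 to 344.2 and 313.3 to 373.5 CPM. None of the markers of these lists was at 0, and their part in the Neurod6 value was not tested.

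None of the 8 was called in cortex in the remaining genotype comparisons by edgeR's quasi-likelihood test. For Q140 against WT 0 of 8 were called (0 at an unadjusted p below 0.05, and 0 by DESeq2) against 0.0428% of all genes. For Pms1+/- against WT 0 of 8 were called (1 below 0.05 unadjusted, 0 by DESeq2) against 0% of all genes, of which 1938 were below 0.05 unadjusted and 39 were called by DESeq2. For Q140 Pms1+/- against Q140 the counts were 0 of 8 (2 unadjusted, 0 by DESeq2) and 0% of all genes, with 1065 unadjusted and 0 by DESeq2.

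For Q140 Pms1+/- against Pms1+/- 0 of 8 were called (1 unadjusted, 0 by DESeq2) against 0.112% of all genes. The unadjusted value was that of Fezf2, which ran from 17.2 through 25.0 to 30.5 CPM with the knock-in and from 26.1 through 30.4 to 34.2 without it (log2 fold change -0.26, edgeR adjusted p = 0.167). For Q140 Pms1-/- against Pms1-/- 0 of 8 were called (1 unadjusted, 0 by DESeq2) against 0.0428% of all genes, and the unadjusted value was that of Emx1, at 0.15 (edgeR adjusted p = 0.336). Pooled over Pms1 genotypes, the knock-in gave 0 of 8 (1 unadjusted, 0 by DESeq2) against 1.73% of all genes. The interaction of knock-in and Pms1-/- gave 0 of 8 (1 unadjusted, 0 by DESeq2) against 0%, with 1020 genes below 0.05 unadjusted and 0 by DESeq2.

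Cortical Slc17a7, which varied little between animals, ran from 1124.3 through 1240.7 to 1393.7 CPM in WT, from 1199.5 through 1300.6 to 1346.1 in Q140 and from 1162.6 through 1279.0 to 1379.6 in Pms1-/-. It ran from 1215.0 through 1369.2 to 1411.5 in Pms1+/-, the highest group, from 1192.0 through 1290.5 to 1361.7 in Q140 Pms1+/- and from 1110.3 through 1245.4 to 1433.1 in Q140 Pms1-/-. Against WT the log2 fold change in Pms1+/- was 0.08 (SE 0.035, unadjusted p = 0.0204, edgeR adjusted p = 0.373), and the ranges of all 6 groups overlap.

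Sex made a small difference for Emx1 in cortex. It was 28.0 ± 1.91 CPM in males and 26.5 ± 2.02 in females (SD, n = 24 each), from 24.8 through 27.9 to 32.0 and from 21.7 through 26.7 to 30.9. The log2 fold change was 0.09 (SE 0.03, edgeR adjusted p = 0.0339), and Emx1 was the 1 of 8 called, against 5.36% of all genes. The ranges of the sexes overlapped widely. The call was lost in a voom fit with the first code number as a block (0.09, limma adjusted p = 0.0833), and among early codes (0.07, edgeR adjusted p = 0.277) or late codes (0.11, adjusted p = 0.335).

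In striatum Cux2 rose with the knock-in where Pms1 was present. Its CPM ran from 10.8 through 13.1 to 15.8 in WT and from 13.9 through 15.2 to 17.1 in Q140, a log2 fold change of 0.21 (SE 0.07, edgeR adjusted p = 0.0168). It ran from 11.2 through 12.9 to 15.1 in Pms1+/- and from 13.4 through 14.9 to 18.7 in Q140 Pms1+/-, a log2 fold change of 0.22 (SE 0.07, edgeR adjusted p = 0.0141). The knock-in ranges sat higher and overlapped those of the controls at their lower end. For Q140 against WT the log2 fold change was 0.29 among early codes (edgeR adjusted p = 0.00662), 0.28 in females (adjusted p = 0.0378) and 0.13 in males (adjusted p = 0.396). Among late codes, with 3 Q140 males and 2 WT females, it was -0.02 after the sex term (adjusted p = 0.972).

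Emx1 did not pass the filter on low counts in striatum, so 7 of the 8 genes were tested there, and Cux2 was the 1 of 7 called in each of these comparisons. Of 18890 genes, 31.3% were called for Q140 against WT and 24.9% for Q140 Pms1+/- against Pms1+/-. A count of 1 of 7 is not above that background, and 7 genes are too few to call it lower. Without Pms1 the Cux2 values ran from 10.6 through 13.1 to 16.1 CPM in Pms1-/- and from 11.2 through 14.5 to 15.6 in Q140 Pms1-/- (log2 fold change 0.05, SE 0.07, edgeR adjusted p = 0.702). There 0 of 7 were called (1 at an unadjusted p below 0.05, 0 by DESeq2) against 11.1% of all genes. The difference between the knock-in effects, tested as an interaction, was -0.15 for Cux2 (SE 0.10, edgeR adjusted p = 0.407). The interaction called 0 of 7 (0 unadjusted, 0 by DESeq2) against 5.05% of all genes, and DESeq2 gave 6 genes an adjusted p.

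Pooled over the Pms1 genotypes, the knock-in called Cux2 as higher and Fezf2 as lower, 2 of 7, against 42.5% of all genes. Cux2 was 14.8 ± 1.54 CPM with the knock-in and 13.3 ± 1.57 without it (SD, n = 24 each; log2 fold change 0.16, SE 0.04, edgeR adjusted p = 0.000857). Fezf2 was 1.95 ± 0.399 and 2.27 ± 0.326 CPM (log2 fold change -0.22, SE 0.07, edgeR adjusted p = 0.0114). For Q140 against WT alone Fezf2 ran from 1.45 through 1.98 to 2.52 CPM and from 1.95 through 2.36 to 2.96, at -0.31 (SE 0.13, edgeR adjusted p = 0.0548). Without the 4 libraries that stood apart the pooled values were 0.17 for Cux2 (edgeR adjusted p = 0.000385) and -0.26 for Fezf2. The Fezf2 value is a description with no test, because Fezf2 ran high in the libraries left out. It was at 2.31 to 2.98 CPM in them, against a median of 2.03 in the other 44.

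Slc17a7 depended on those libraries. With all 48 striata its pooled knock-in value was 0.01 (SE 0.27, edgeR adjusted p = 0.98). Without the 4 it was -0.25. That value is a description with no test, because the libraries were set apart by Slc17a7 itself.

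Marker lists of other striatal cells moved in the same pooled comparison, in which 42.5% of all genes were called, 4255 higher and 3780 lower. Of the 14 medium spiny neuron markers 4 were higher and 10 lower (median -0.44), and their summed level was 8029.5 to 11261.2 CPM with the knock-in and 11904.9 to 14367.9 without it, with no overlap. Of 8 microglia markers 6 were lower, with sums of 345.0 to 426.1 against 380.8 to 433.0 CPM. Of 8 astrocyte markers 1 was higher and 4 lower, with sums of 3545.4 to 4003.5 against 3844.1 to 4362.8 CPM. Of 7 endothelial and mural markers 4 were lower, with sums of 280.4 to 353.2 against 319.6 to 369.9. No marker of these lists was at 0, and their part in the Cux2 and Fezf2 values was not tested. Of the other cortical lists 3 upper-layer genes were higher and 6 lower of 14 (median -0.05), and 2 deep-layer genes were higher and 4 lower of 16 (median 0.00). Of 13 other forebrain excitatory genes 5 were higher and 4 lower (median 0.02), but their summed level was 4513.4 to 5725.0 CPM with the knock-in and 5530.8 to 6412.5 without it. Cortical patterning factors summed to 195.1 to 227.0 against 226.2 to 272.6 CPM, with 1 higher and 2 lower of 8.

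Loss of Pms1 gave no call among the 7 genes in striatum, although libraries that stood apart moved the fold changes. Of these, 16-4 and 26-5 are Pms1-/- and 43-5 is Q140 Pms1-/-, while 9-4 is in no group compared here. In Pms1-/- against WT 0 of 7 were called (5 at an unadjusted p below 0.05, 0 by DESeq2) against 7.91% of all genes, and the median of the 7 was 0.91. DESeq2 gave 6 genes an adjusted p there. In the pooled comparison 0 of 7 were called (3 unadjusted, 1 by DESeq2) against 10% of all genes, with a median of 0.70 against 0.00 over all genes. DESeq2 gave 5 genes an adjusted p in it. Slc17a7 was at 0.83 (SE 0.32, edgeR adjusted p = 0.0958), Neurod6 at 0.79 (adjusted p = 0.233), Neurod2 at 0.72 (adjusted p = 0.158) and Tbr1 at 0.70 (adjusted p = 0.155). Without the 4 libraries they were at 0.12, 0.17, 0.09 and 0.03. Those values are descriptions with no test, because the libraries were set apart by Slc17a7, and Neurod6, Neurod2 and Tbr1 were high in the same libraries.

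For Pms1+/- against WT in striatum 0 of 7 were called (0 unadjusted, 0 by DESeq2) against 0% of all genes, with 1882 below 0.05 unadjusted and 17 called by DESeq2. Only 2 of the genes had an adjusted p from DESeq2 there, so its count says little. For Q140 Pms1+/- against Q140 0 of 7 were called (2 unadjusted, 0 by DESeq2) against 0%, with 1026 genes unadjusted and 1 by DESeq2. For Q140 Pms1-/- against Q140 0 of 7 were called (0 unadjusted, 0 by DESeq2) against 7.1% of all genes, and DESeq2 gave 5 genes an adjusted p. By sex Cux2 was the 1 of 7 called, against 6.16% of all genes, at 14.7 ± 1.55 CPM in males and 13.4 ± 1.71 in females (SD, n = 24 each; log2 fold change 0.13, SE 0.04, edgeR adjusted p = 0.0422). Without the 4 libraries that value was 0.12 (adjusted p = 0.0683). With the code block in voom it was also 0.12 (limma adjusted p = 0.127), and with late code as a term 0.13 (edgeR adjusted p = 0.0581).

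**Figure D4:**
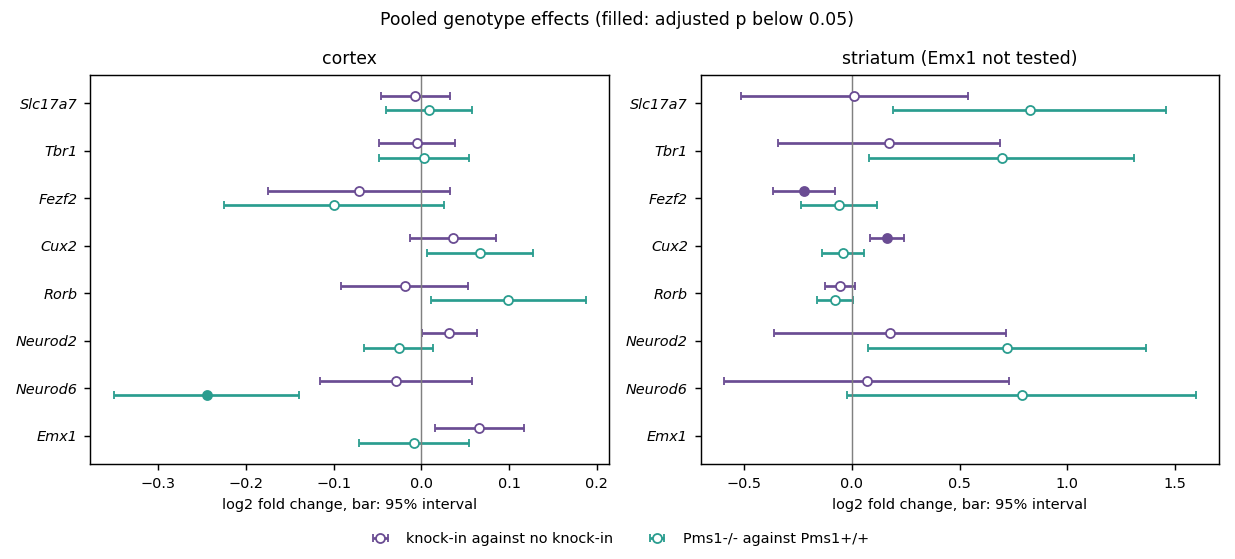
Log2 fold change with its 95% interval for the knock-in against no knock-in (purple) and Pms1-/- against Pms1+/+ (green), in cortex and striatum, with filled symbols for an edgeR adjusted p below 0.05. Neurod6 at -0.24 in cortex and Cux2 at 0.16 and Fezf2 at -0.22 in striatum are filled, and striatal Slc17a7, Tbr1, Neurod2 and Neurod6 have wide intervals.

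No genotype effect of the 8 was shown to differ between the tissues. The Q140 effect differed for 0 of 8 genes (2 unadjusted, 1 by DESeq2) against 13.3% of 19723 genes, the pooled knock-in effect for 0 of 8 (1 unadjusted, 1 by DESeq2) against 22.8%, and the pooled Pms1-/- effect for 0 of 8 (5 unadjusted, 1 by DESeq2) against 2.39%. In each of these DESeq2 gave 7 of the 8 an adjusted p. For Cux2 the pooled knock-in effect in cortex minus that in striatum was -0.12 (edgeR adjusted p = 0.0552). For Fezf2 the Q140 effect differed by 0.43 (edgeR adjusted p = 0.0601). Both fall just short of the threshold, so a call in 1 tissue is not a difference between tissues.

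Across the 48 cortices several of the 8 genes varied together and others against each other. Log2 CPM values were taken after removing the mean of each genotype and sex, and permutation p-values were adjusted over the 28 pairs. Of these, 11 passed as positive and 3 as negative. Scaled to total counts only, 10 passed as positive and 8 as negative, and without removing the group means 11 and 5, so the number of negative pairs depends on these choices. Slc17a7 and Neurod2 had a Pearson r of 0.682 (Spearman's rho 0.674, n = 48, adjusted permutation p = 0.00042), and Fezf2 and Neurod6 had 0.684 (rho 0.662, adjusted permutation p = 0.00042). Slc17a7 and Tbr1 had 0.665 (rho 0.624, adjusted permutation p = 0.00063). Without the 2 animals farthest from the median these were 0.650, 0.638 and 0.635.

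The upper-layer factors Cux2 and Rorb went together, with r = 0.557 (rho 0.555, adjusted permutation p = 0.00068). Each went against the deep-layer factor Fezf2: Cux2 with r = -0.543 (rho -0.512, adjusted permutation p = 0.00277) and Rorb with r = -0.534 (rho -0.551, adjusted permutation p = 0.00118). Rorb and Neurod6 had -0.495 (rho -0.477, adjusted permutation p = 0.00723). Without the 2 farthest animals these were 0.543, -0.447, -0.509 and -0.407. Neither Cux2 nor Rorb passed as a negative pair with Tbr1, the other deep-layer factor, so the opposition was shown for Fezf2 only. Emx1 passed in no pair. The layer make-up of each dissected piece was not measured, and libraries also differ in depth and animal code.

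Within animals of early code (first number 15 or lower, n = 26), 0 of the 28 pairs passed, with a lowest adjusted permutation p of 0.084, and all 14 pairs kept their sign. There r was 0.536 for Fezf2 and Neurod6, 0.583 for Slc17a7 and Neurod2, 0.518 for Cux2 and Rorb and -0.624 for Fezf2 and Cux2. Among late codes (n = 22) 12 of the 14 passed with the same sign, 10 positive and 2 negative. In striatum without the 4 libraries 0 of 28 pairs passed (n = 44). The highest r there was 0.551, for Slc17a7 and Tbr1, a description because the libraries were set apart by Slc17a7.

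**Figure D5:**
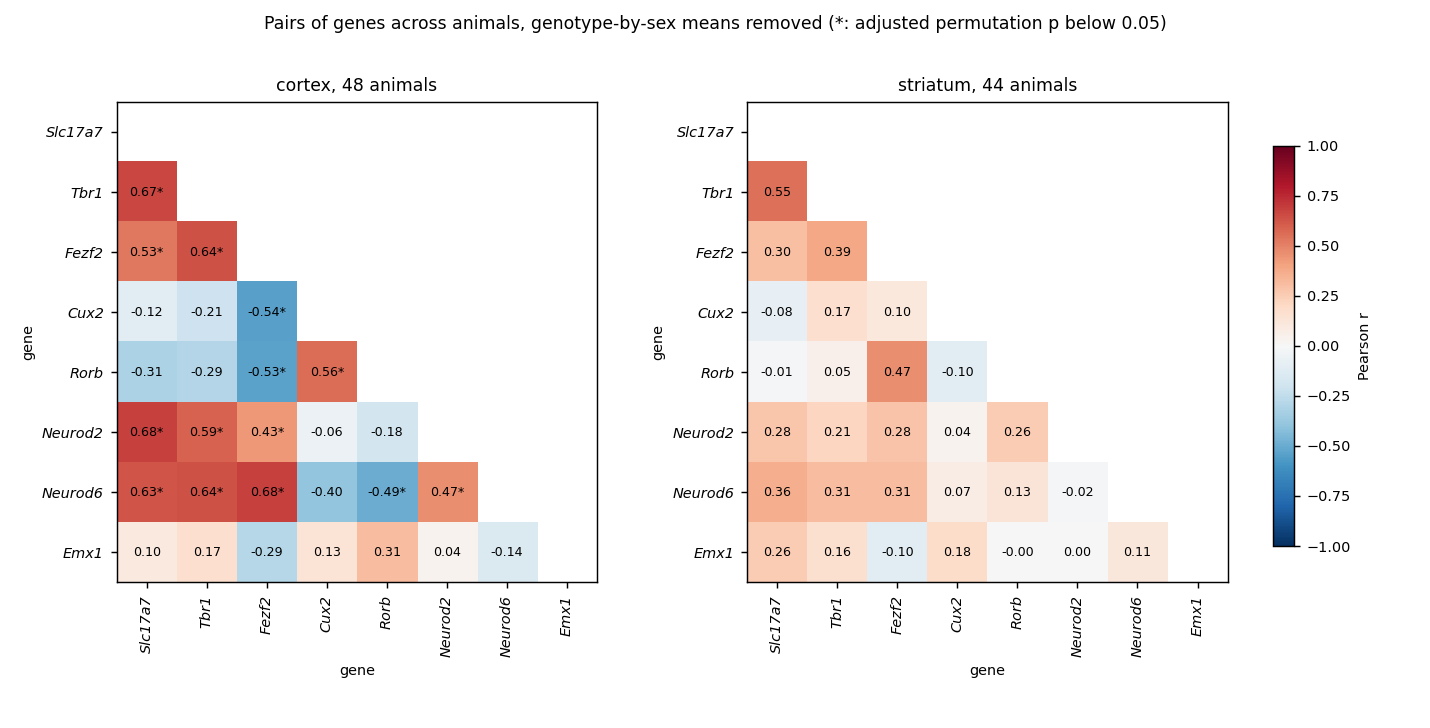
Pearson r for each pair of the 8 genes across animals after genotype-by-sex means were removed, in cortex (48 animals) and striatum (44 animals), with a star where the adjusted permutation p is below 0.05. In cortex Slc17a7, Tbr1, Fezf2, Neurod2 and Neurod6 form the positive block, and Cux2 and Rorb are negative with Fezf2, while no pair is starred in striatum.

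The genes whose cortical pattern was most like the mean of the 8 were Dnm1 (r = 0.851), Iqsec1 (0.846), Mal2 (0.837) and Atp1b1 (0.826), across 48 libraries and among 13258 genes. Dnm1 encodes dynamin, which cuts endocytic vesicles from the membrane, and Atp1b1 a subunit of the sodium pump. In striatum without the 4 libraries Cep68 (0.605), Fam210b (0.573) and Rara (0.547) stood first among 13212 genes over 44 libraries. These r values are descriptions of libraries that share their depth and dissection, and the likeness in striatum was weaker.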

How the data were processed

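The authors deposited whole-number read counts per gene, not normalized, and a second table of FPKM values, which divide the counts by gene length and library size. Tools named in the submitters' processing notes are HTSeq 0.12.3, SAMtools 1.10 and STAR 2.7.5c, with mm10 and GRCm38 as builds. No source used here gives the annotation release or strand setting. Per the labels' protocols, RNA was purified with RNeasy and sequenced after stranded TruSeq preparation. Coordinates come from GENCODE M21, in which 48435 of the 48795 identifiers occur.

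Tests on the counts used edgeR 4.0.16 and R 4.3.3 (TMM, filterByExpr by genotype, robust quasi-likelihood), in 1 fit per tissue with genotype and sex as terms, and for tissue comparisons in 1 fit of all 96 libraries. The threshold for a call was a Benjamini-Hochberg adjusted p of 0.05 over all genes tested. Pooled comparisons average the WT, Pms1+/- and Pms1-/- backgrounds (knock-in), or both Htt genotypes (Pms1-/- against Pms1+/+). Correlations used log2 CPM (prior count 2) and 100000 permutations. The edgeR fit was tested on simulated cortical counts with known changes in 1 comparison, Q140 against WT. The striatal fits, the tissue comparisons and the correlations were not tested in that way. DESeq2, limma on log2(FPKM + 0.1), other scalings, no filter, only the groups compared, single sexes, code classes and libraries left out were alternatives. As a check of the pairing, tissues of 1 animal share that animal by the labels, and the animal was used as a block. The series text gives 16 animals per group and the labels 8 per genotype; the labels were followed.

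All 8 genes were named, with up to 2 risen and 2 fallen genes per marker list and the genes most like the 8; a selection of these is printed, and some are not reported here. The 8 genes and the lists were chosen with earlier results of these data known.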

Additional observations from a re-analysis of the deposited data

Results flagged for a closer look

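A gap test was run on the CPM of each of the 8 genes in each of the 12 groups of 8 animals, 96 groups in all. It asks whether the highest or lowest animal lies farther from its nearest neighbour than Dixon's critical share of the group's range. It marked 13 groups, and chance marks about 1 in 20.

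Of these, 8 were striatal values of 2 animals described above. In animal 9-4 (Q140 Pms1+/-) Slc17a7 at 28.6, Tbr1 at 3.98, Neurod2 at 2.64 and Neurod6 at 2.12 CPM lay above its 7 group mates, which reached 4.35, 0.855, 0.541 and 0.391. In animal 43-5 (Q140 Pms1-/-) Slc17a7 at 21.4, Tbr1 at 3.31, Neurod2 at 1.97 and Neurod6 at 0.869 CPM lay above group mates that reached 4.06, 0.749, 0.431 and 0.364. In Pms1-/- the 2 high libraries fall in 1 group, which a gap test for a single animal does not mark. Neurod6 at 0.609 CPM in the striatum of Q140 animal 8-2 was also marked, against 0.0939 to 0.32.

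In cortex Fezf2 was at 33.6 CPM in WT animal 11-4, against 23.6 to 28.0 in the other WT animals. The cortex of Q140 animal 23-4 was marked for 2 genes, with Cux2 at 253.2 CPM against 211.2 to 227.0 and Neurod2 at 106.6 against 115.8 to 120.8. Neurod6 was at 72.3 CPM in the cortex of Pms1-/- animal 16-4, whose striatum also stood apart, against 56.0 to 63.4.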

How the results depend on the processing

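Across the alternatives, 238 counts of called genes stayed within 1.5 times, 26 fell and 20 rose further, and of the named single values 6 turned direction. With the animal as a block (replicate block), all 8 genes stayed called between WT tissues and 0 of 8 in each tissue difference. Cortical Pms1-/- against WT fell from 1 to 0 called with late code as a term, late codes only, males only, no filter or a voom fit with code as a block, and the pooled comparison to 0 with late code as a term, late codes only or males only. DESeq2 called 1 gene (Neurod6) in cortical Q140 Pms1-/- against Q140. For sex in cortex 0 were called among early or late codes or with the code block, and 2 by limma on FPKM or total-count scaling; for sex in striatum 0 with late code as a term, early or late codes only, no filter, the code block or without the 4 libraries. In striatum Q140 against WT gave 2 (Fezf2 joining) by DESeq2, in females, with late code as a term or with only the groups compared. Without the 4 libraries it also gave 2, where Fezf2 is a description because it ran high in the libraries left out. It gave 0 in males or late codes, where Cux2 was at -0.018. Q140 Pms1+/- against Pms1+/- gave 2 by DESeq2 and 0 in each sex, Q140 Pms1-/- against Pms1-/- 3 in males, and Pms1-/- against WT 1 with only the groups compared. DESeq2 gave 1 for pooled Pms1-/- and the pooled knock-in gave 1 in females; in males it put Slc17a7 at -0.76, Tbr1 at -0.66 and Neurod2 at -0.59, with libraries 16-4 and 26-5 among the males. Slc17a7 was at -0.25 without the 4 libraries and its tissue difference at 0.25. Tissue differences gave 1 for Q140 and 1 for the pooled knock-in (DESeq2, FPKM, total counts), 2 for the latter without the 4 libraries (Cux2 and Slc17a7, by which they were set apart), and 1 for pooled Pms1-/- (DESeq2). Pairs past the threshold fell to 0 in cortex with early codes, and in striatum from 11 to 0 without the 4 libraries, which were also left out of the early codes (0) and late codes (0). The causes were not tested. Late code as a term, the code classes for the pairs and leaving out the 4 libraries were added after seeing the data. Striatal Neurod2, Neurod6 and Emx1 rest on few counts.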
